A study of Mus musculus with 9 samples.

Results

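The imprinted genes Mest, Dlk1, Meg3, Rian, H19, Igf2, Cdkn1c, Peg3, Plagl1 and Nnat were followed in mouse pancreatic islets, and all 10 were found by symbol among the 23329 genes of the islet count table. They were picked with their mutant against control differences already known, so those differences are described here and carry no test. Polyadenylated RNA was sequenced from islets of male mice in 4 libraries titled as controls, whose genotype label is Pdx1+/-, and in 5 titled as mutants, whose genotype label is Pdx1A4. The labels do not explain Pdx1A4, and they do not say whether a mutant carries a deleted allele as the controls do. Age, and whether a library is 1 animal or a pool, are not given either, so each p-value below measures the spread between libraries, which may be technical. Pdx1 is a homeodomain transcription factor needed to form the pancreas and to keep beta cells, the insulin-secreting cells of the islet.

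An imprinted gene is read mainly from the copy of 1 parent, because DNA methylation set in the egg or sperm marks a control region on 1 parental copy. Imprinted genes lie in clusters that often pair protein genes from 1 parental copy with long noncoding RNAs from the other, and several of them steer growth before birth. In the pancreas, Meg3 and its cluster are known from beta cells, Nnat is known for a part in processing of preproinsulin, and Mest, a member of the alpha/beta hydrolase fold family, is known from embryonic mesoderm and from growing fat tissue. Reads here were not assigned to parental copies, so these values say nothing on which copy was read.

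Totals ran from 6092010 to 9163253 counts per library. Levels are in CPM, which are counts divided by library size after correction for composition. Control 2 lay far above the other controls for several genes named below. Islet hormone and beta cell genes were present in every library, but Mafa, a defining beta cell factor, had 0 counts in all 4 controls. The 12 beta cell markers summed to between 108100 and 179700 CPM in controls and between 688.4 and 61980 in mutants. The 17 acinar markers are genes of the enzyme-secreting exocrine cells. They summed to between 20330 and 46570 CPM in controls and between 113600 and 255800 in mutants. By edgeR's quasi-likelihood test 16 of the 17 rose, where 20.6% of all genes tested rose and 11.8% fell. Alpha cell markers summed to between 8575 and 24190 CPM in controls and between 91.39 and 8382 in mutants. Delta cell markers summed to between 1126 and 1411 CPM in controls and between 13.08 and 557.8 in mutants. By edgeR 2 of 11 beta, 2 of 5 alpha and 2 of 3 delta cell markers tested fell, against 11.8% of all genes tested. In each of these lists 0 rose, against 20.6%. Of 9 ductal markers 3 rose and 1 fell by edgeR, and 0 of 8 macrophage markers tested passed. The ductal and macrophage sums overlapped between the groups. Mutants 2 and 3 had the lowest beta, alpha and delta cell and granule exocytosis levels. In bulk RNA, fewer cells of a type and less RNA per cell cannot be told apart.

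The start sites of Mest, Meg3 and Peg3 are shown first, because Mest lay higher in the mutants and Meg3 and Peg3 lower. Each line holds the 250 bases before a start site, on the gene's own strand, from RefSeq on build GRCm38.p6. Capitals in the Mest and Meg3 lines mark TGCCGC or its reverse complement GCGGCA, the hexamer read by ZFP57, the zinc finger protein that guards methylated imprints. Capitals in the Peg3 line mark GGGGCCCC, a core described for PLAGL1.
Mest, second start, chr6:30737800-30738049, plus strand: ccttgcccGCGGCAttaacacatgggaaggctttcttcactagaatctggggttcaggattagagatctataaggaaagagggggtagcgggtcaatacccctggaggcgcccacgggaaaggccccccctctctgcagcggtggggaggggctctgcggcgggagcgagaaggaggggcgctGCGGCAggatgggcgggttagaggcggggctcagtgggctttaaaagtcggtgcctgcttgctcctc
Meg3, first start, chr12:109540746-109540995, plus strand: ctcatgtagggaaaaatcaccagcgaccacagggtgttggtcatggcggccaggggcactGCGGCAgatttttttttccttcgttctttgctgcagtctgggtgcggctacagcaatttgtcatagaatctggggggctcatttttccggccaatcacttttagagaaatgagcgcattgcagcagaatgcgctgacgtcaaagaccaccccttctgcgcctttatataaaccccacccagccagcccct
Peg3, chr7:6730420-6730669, minus strand: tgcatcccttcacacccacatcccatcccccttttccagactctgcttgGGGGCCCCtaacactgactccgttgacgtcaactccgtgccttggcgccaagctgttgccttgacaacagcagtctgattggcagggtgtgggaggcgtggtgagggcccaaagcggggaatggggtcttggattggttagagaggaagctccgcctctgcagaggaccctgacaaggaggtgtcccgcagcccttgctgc
RefSeq gave start sites for 8 of the 10 members, all but H19 and Cdkn1c. The window from 250 bases before to 50 after the second Mest start held 17 CpG pairs, more than 68.1% of 27025 such windows, whose median was 7. The upstream Mest start held 8, the first Meg3 start and the Peg3 start held 13 each, and the second Meg3 start held 1. Both strands were searched, and TGCCGC was found in 11.6% of all windows and GGGGCCCC in 1.06%, so a match is a description of these letters. Counts per gene do not tell which start was used, and methylation was not measured.

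Mest was the member that lay higher in the mutants. It lies at chr6:30733506-30748466 on the plus strand, and an intron hosts the microRNA miR-335, which these polyadenylated libraries did not measure. Its mature forms are shown because they share the host's transcript, with the seed (bases 2 to 8) in capitals.
miR-335-5p: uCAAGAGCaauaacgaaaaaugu
miR-335-3p: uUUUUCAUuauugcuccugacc
Mest stood at 36.2, 31.0, 46.5 and 49.9 CPM in controls 1 to 4. In mutants 1 to 5 it stood at 265, 605, 544, 446 and 256 CPM. The lowest mutant lay above the highest control by a wide margin, and the 2 highest mutants were 2 and 3. The means were 40.9 ± 8.77 CPM (SD, n = 4) and 423 ± 159 CPM (SD, n = 5), a 10.3-fold difference, or 3.37 on the log2 scale with a standard error of 0.32. Of the 12402 genes tested, 0.29% had a larger log2 difference. Without mutants 2 and 3 the Mest difference was 2.91.

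The acinar markers ran with Mest in part across the mutants, but not across the controls. As differences in log2 CPM from the control mean, Mest stood at 2.72, 3.90, 3.75, 3.46 and 2.66 in mutants 1 to 5. The acinar score, the mean over the 17 markers, stood at 2.17, 3.01, 3.002, 3.10 and 2.20. Of the mutants, 1 and 5 were the lowest in both, while the highest was mutant 2 for Mest and mutant 4 for the score. In controls 1 to 4 Mest stood at -0.15, -0.37, 0.21 and 0.31 and the score at -0.095, 0.049, 0.27 and -0.22. Control 4 was thus the highest control for Mest and the lowest for the score. The genes whose profile over the 9 libraries lay closest to that of Mest were Aldh1a1, a retinaldehyde dehydrogenase, with a root mean square difference of 0.193 in log2 CPM, Ctrb1 (0.218), Cpa1 (0.251) and Pnliprp2 (0.277). Ctrb1, Cpa1 and Pnliprp2 encode pancreatic digestive enzymes or their proenzymes, and among 11513 genes ranked this way Kcnq1, also imprinted, came at rank 109. Aldh1a1, Ctrb1, Cpa1 and Pnliprp2 had log2 differences of 3.20, 3.26, 3.50 and 3.31. The ranking takes in the mutant against control difference, known when Mest was picked, so it is a description and no separate support. The same holds for the Nnat and Meg3 rankings below. The part of acinar RNA in the Mest difference was not tested. A covariate for endocrine content was then added, the endocrine score, which is the mean log2 CPM of 24 genes for exocytosis of insulin granules. With it the Mest difference was 2.70 with a standard error of 0.30. The score holds no acinar marker, and acinar content was not a covariate in any fit.

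**Figure D1:**
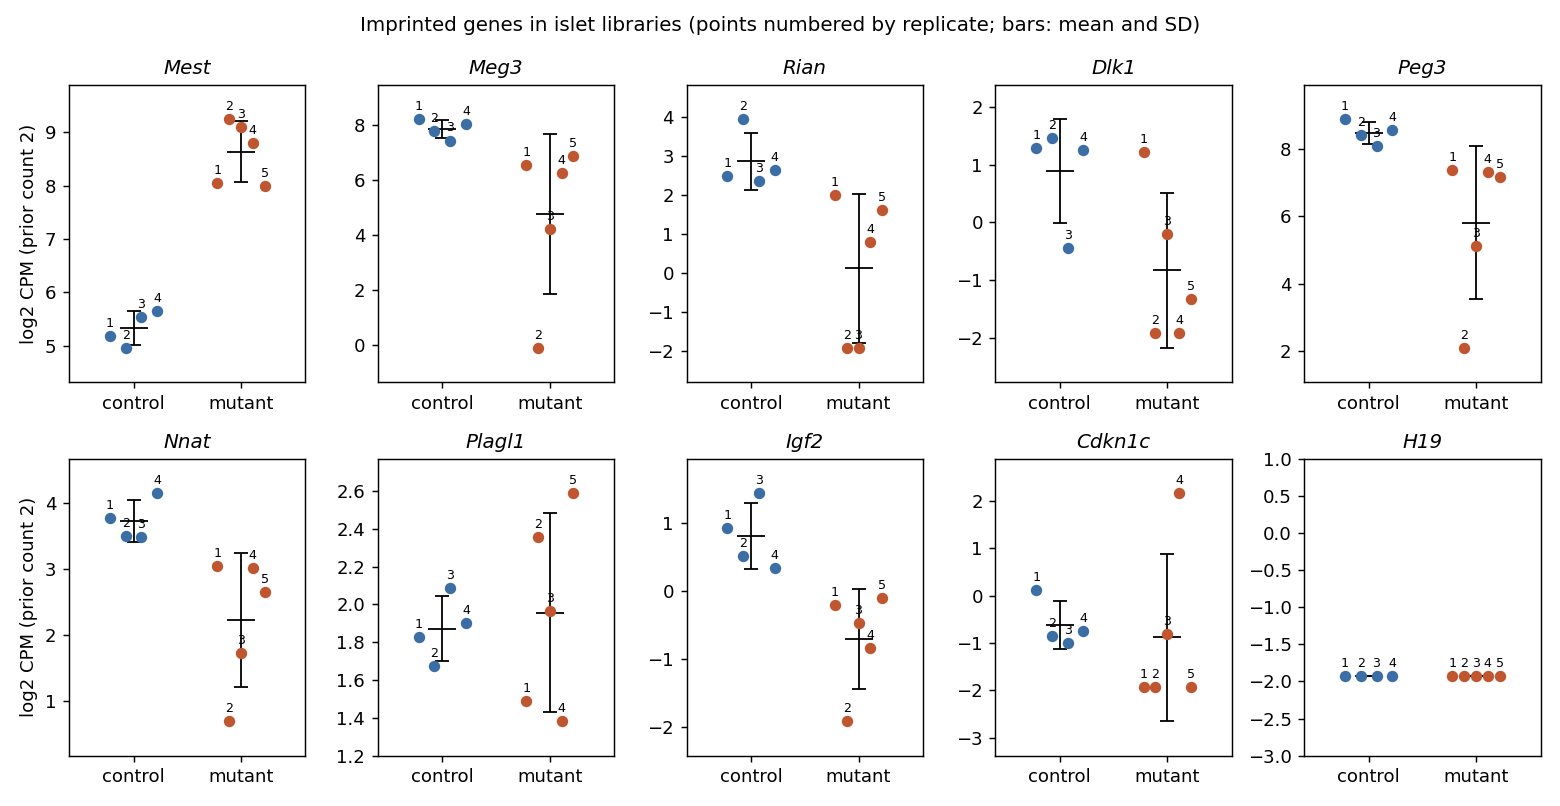
Level of each member in each library as log2 CPM with a prior count of 2, in 1 panel per gene with its own scale, controls in blue, mutants in orange, points numbered by replicate and bars giving mean and SD. Mest lies higher in every mutant than in any control, H19 sits at the value of 0 counts throughout, and Meg3, Rian, Igf2, Peg3 and Nnat lie lower in every mutant than in any control.

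Groups did not overlap for 6 of the 10 members. Mest was higher in all 5 mutants than in any control, a pattern seen for 18.5% of the genes tested. Meg3, Rian, Igf2, Peg3 and Nnat were lower in all 5 mutants than in any control, a pattern seen for 14.7% of the genes tested. Of the genes tested, 33.2% did not overlap in either direction. Because the members were chosen on this contrast, nothing is read from these counts. Dlk1, Plagl1 and Cdkn1c overlapped between the groups, and H19 had no counts.

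The cluster on chromosome 12 holds Dlk1, a membrane protein related to the Notch ligands and read from the paternal copy, and the maternal noncoding RNAs Meg3, Rian and Mirg. Meg3 (chr12:109540996-109571729) stood at 297, 221, 174 and 261 CPM in controls 1 to 4. In mutants 1 to 5 it stood at 93.0, 0.674, 18.5, 77.0 and 116 CPM, so the highest mutant lay under the lowest control and mutant 2, with 5 counts, was almost without it. The means were 238 ± 53.0 CPM (SD, n = 4) and 61.1 ± 49.4 CPM (SD, n = 5), a difference of -1.96 on the log2 scale with a standard error of 0.87. Without mutants 2 and 3 the Meg3 difference was -1.38 with a standard error of 0.24.

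Rian (chr12:109603945-109661716), a noncoding RNA that hosts small nucleolar RNAs and 3 microRNA hairpins, had 39, 104, 42 and 54 counts in controls and 31, 0, 0, 10 and 21 in mutants. Control 2 was the high control, and mutants 2 and 3 had none. Its log2 SD over controls was 0.73, larger than in 92.6% of 1831 genes of like level. Dlk1 (chr12:109452485-109463336) was near the detection limit, with 16, 17, 4 and 19 counts in controls and 17, 0, 4, 0 and 1 in mutants. Mutant 1 was level with the controls, so the groups overlapped. Outside the members, the microRNA host Mirg fell, with means of 3.57 ± 0.645 CPM in controls (SD, n = 4) against 0.870 ± 0.569 CPM (SD, n = 5) in mutants and a log2 difference of -2.01 (edgeR adjusted p = 0.0296). The Mirg call was lost on leaving out any 1 control or mutant 3, where the edgeR adjusted p reached 0.0787. Rtl1 lies on the other strand, overlapping Meg3 over 6830 bases and Rian over 474, and had at most 5 counts in any library. Since the sources do not say whether counting used strand, reads in those stretches cannot be divided.

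Peg3 (chr7:6703892-6730462, minus strand) encodes a large zinc finger protein read from the paternal copy. It stood at 471, 337, 273 and 374 CPM in controls 1 to 4. In mutants 1 to 5 it stood at 165, 4.04, 34.6, 158 and 143 CPM, and all 5 lay below every control. The means were 364 ± 82.9 CPM (SD, n = 4) and 101 ± 75.7 CPM (SD, n = 5), a log2 difference of -1.85 with a standard error of 0.76. Per kilobase of exon, Peg3 was the most abundant member in controls, at 41.8 CPM per kb. Meg3 was at 15.2, Mest at 14.7 and Nnat at 9.16. Exon length was the union over annotated transcripts (4 for Meg3, 1 for Peg3), so the order depends on that choice. The control ranges of Meg3 (11.1 to 18.96 CPM per kb) and Mest (11.2 to 18.0) overlapped, as did those of Mest and Nnat (7.57 to 12.1). In mutants the mean of Mest was 152 CPM per kb, and its lowest library, at 92.2, lay above every mutant library of the others. Peg3 (mean 11.6, range 0.465 to 18.98 CPM per kb), Meg3 (3.89, 0.0430 to 7.41) and Nnat (3.64, 0.937 to 5.56) overlapped in the mutants, so their order rests on the means. The other members, Plagl1, Rian, Dlk1, Igf2 and Cdkn1c, were at 0.634 CPM per kb or lower in controls.

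Both neighbours of Peg3 fell. Usp29, a paternally read ubiquitin protease gene that starts beside Peg3 on the other strand, had a log2 difference of -2.43 (edgeR adjusted p = 0.0255), and the maternally read Zim1 one of -2.33 (edgeR adjusted p = 0.0492). Leaving out control 1, 3 or 4 or mutant 3 lost the Usp29 call (edgeR adjusted p up to 0.0742). The Zim1 call was lost without any 1 control or mutant 1, 3 or 5 (edgeR adjusted p up to 0.101), and without mutant 4 its difference was -3.38. Zim1 had 0 to 9 counts in the mutants.

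Meg3 and Peg3, on chromosomes 12 and 7 and of opposite parental origin, kept a close ratio in controls, and no mutant lay within the control range. Meg3 counts over Peg3 counts were 0.631, 0.656, 0.637 and 0.696 in controls 1 to 4. In mutants 1 to 5 the ratio was 0.564, 0.167, 0.535, 0.487 and 0.813. Mutant 5 was the highest of all 9 and mutant 2, with 5 Meg3 and 30 Peg3 counts, the lowest. Mest counts over Peg3 counts were 0.0769, 0.0920, 0.171 and 0.133 in controls against 1.61, 150, 15.7, 2.82 and 1.79 in mutants.

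**Figure D2:**
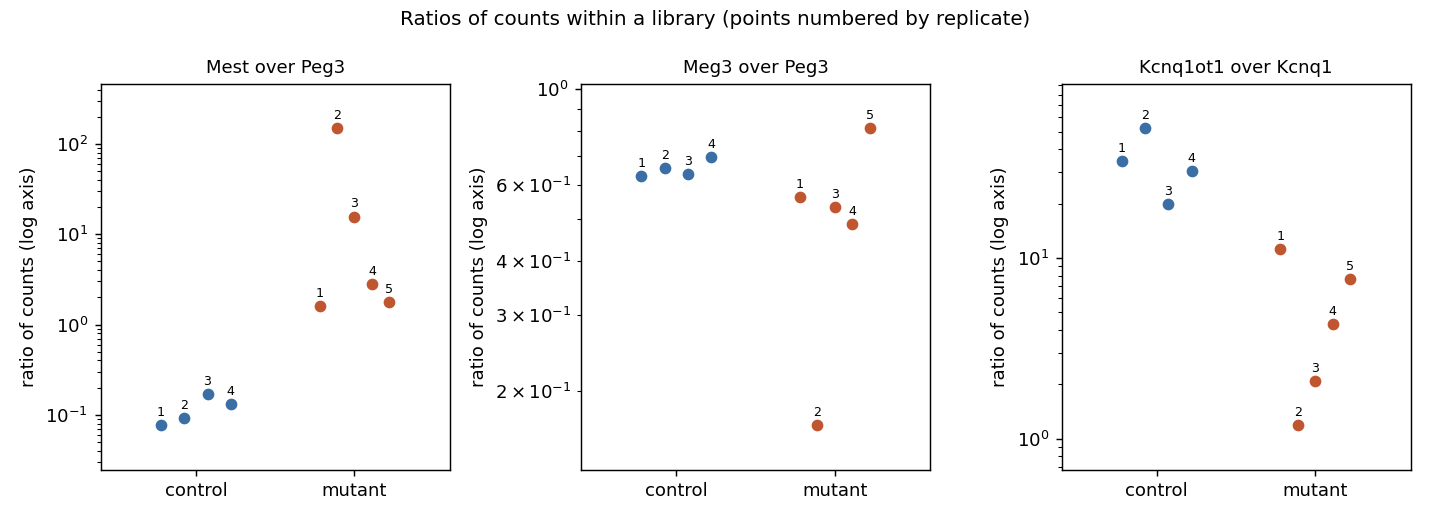
Ratios of counts for Mest over Peg3, Meg3 over Peg3 and Kcnq1ot1 over Kcnq1 in each library, on log axes, with points numbered by replicate, controls in blue and mutants in orange. Meg3 over Peg3 stays between 0.487 and 0.813 outside mutant 2, while the other ratios do not overlap between the groups.

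Nnat (chr2:157560078-157562525), which encodes a small membrane protein of the endoplasmic reticulum, stood at 13.4, 10.98, 10.9 and 17.4 CPM in controls. In mutants it stood at 7.99, 1.35, 3.03, 7.75 and 6.02 CPM, again lowest in mutants 2 and 3 and below every control. The means were 13.2 ± 3.07 CPM (SD, n = 4) and 5.23 ± 2.94 CPM (SD, n = 5), a log2 difference of -1.33 with a standard error of 0.44. All 2448 bases of Nnat lie within Blcap, on the other strand. Blcap did not pass, at -0.26 (edgeR adjusted p = 0.264). The profiles closest to that of Nnat were those of Lgals3bp (root mean square difference 0.149), Hdac6 (0.198), Mtmr11 (0.198) and Reep2 (0.201).

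The granule exocytosis genes, which load and release insulin granules, moved across the mutants with Meg3, Peg3 and Nnat. Of the 24 tested, 7 fell and 0 rose by edgeR, where 11.8% of all genes tested fell and 20.6% rose. The genes summed to between 22540 and 28760 CPM in controls and between 239.7 and 13100 in mutants. Their score, as a difference from the control mean, was -1.02, -5.58, -3.05, -1.46 and -1.48 in mutants 1 to 5. Meg3 stood at -1.33, -7.96, -3.64, -1.60 and -1.01 in the same libraries, Peg3 at -1.11, -6.37, -3.36, -1.17 and -1.32, and Nnat at -0.68, -3.03, -2.0, -0.72 and -1.07. Mutant 2 was lowest and mutant 3 next in all 4, while the order of the other mutants varied, and Nnat spanned the smallest range. Rian had 0 counts in mutants 2 and 3. Igf2 and Dlk1, with few counts, had fewer in mutant 4 (2 and 0) than in mutant 3 (3 and 4). The profiles closest to Meg3 were those of Sez6l (0.202), the insulin gene Ins1 (0.218), Chga (0.241), which encodes a core granule protein, and Ap3b2 (0.261).

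With the endocrine score as a covariate the Meg3 difference was 0.83 with a standard error of 0.35 and the Peg3 difference 0.41 with a standard error of 0.22, so both turned sign. Rian stood at 1.88, Dlk1 at 0.34 and Nnat at -0.14 in that fit. The score itself differs between the groups, which explain 49.8% of its variance, so the covariate and the genotype overlap. The part of endocrine RNA in the lower members was not tested beyond these values. Markers of 3 further cell types were also read beside these members. The stellate and fibroblast score, as a difference in log2 CPM from the control mean, was -0.34, -4.16, -1.98, -0.88 and -2.01 in mutants 1 to 5, while the summed level ran from 51.65 to 102.6 CPM in controls and from 3.235 to 120.4 in mutants. Endothelial markers summed to between 55.61 and 186.1 CPM in controls and between 5.796 and 104.6 in mutants, and Schwann cell and neuron markers to between 16.83 and 26.04 CPM and between 1.078 and 19.98. Mutants 2 and 3 were the lowest libraries for both sums, at 1.078 and 4.247 CPM for the Schwann cell and neuron markers. By edgeR, 2 of 8 tested stellate and fibroblast markers fell, where 11.8% of all genes tested did. In either direction 0 of 9 endothelial and 0 of 3 Schwann cell and neuron markers passed, where 32.4% of all genes tested did. The part of these cells in the lower members was not tested.

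**Figure D3:**
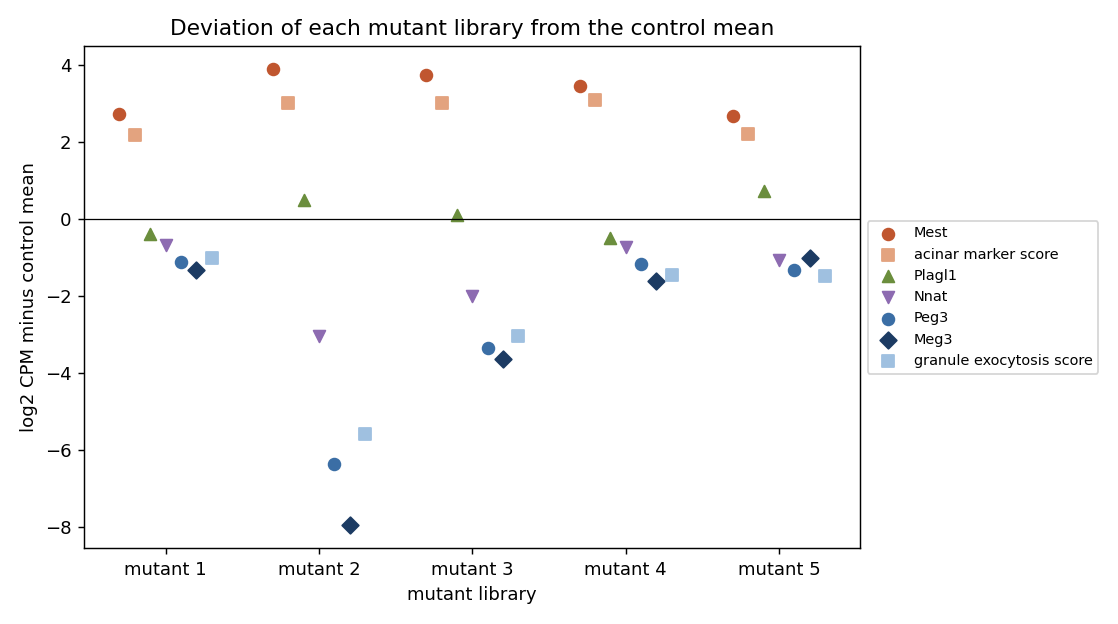
Difference in log2 CPM from the control mean in each of the 5 mutant libraries, for Mest, Meg3, Peg3, Nnat and Plagl1 beside the acinar and granule exocytosis scores. Mest runs with the acinar score, from 2.66 to 3.90, and Meg3, Peg3 and Nnat are lowest in mutants 2 and 3, as the granule score is.

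Plagl1, a zinc finger transcription factor that targets other imprinted genes, did not differ in a steady direction. It stood at 3.28, 2.93, 3.98 and 3.47 CPM in controls and 2.54, 4.85, 3.64, 2.34 and 5.75 CPM in mutants, which lay on both sides of the controls. The log2 difference was 0.16 with a standard error of 0.33, and it was -0.006 without mutants 2 and 3. Its log2 SD over controls, 0.17, was among the smallest, with 5.14% of 1594 genes of like level below it.

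At the far end of chromosome 7 lie Igf2, a fetal growth factor read from the paternal copy, and the maternally read H19 and Cdkn1c. H19, a noncoding RNA that is abundant before birth, had 0 counts in all 9 libraries, which allows up to 0.335 to 0.455 CPM per library (3 counts, counting error only). Igf2 had 12, 8, 21 and 9 counts in controls and 5, 0, 3, 2 and 5 in mutants, lower in every mutant but too few to enter the tests. Cdkn1c, which encodes the cell cycle inhibitor p57, had 6, 2, 2 and 3 counts in controls. In mutants it had 0, 0, 2, 29 and 0, so mutant 4 alone held most of the Cdkn1c counts of the series.

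Between Igf2 and Cdkn1c lie Kcnq1, a potassium channel gene, and Kcnq1ot1, the paternally read antisense RNA that silences the cluster in cis. Kcnq1 rose, with means of 3.61 ± 0.469 CPM in controls (SD, n = 4) against 21.0 ± 13.01 CPM (SD, n = 5) in mutants and a log2 difference of 2.53 ± 0.45 (SE, edgeR adjusted p = 0.00448). Slc22a18, a transporter gene of the same cluster, rose by 2.09 (edgeR adjusted p = 0.00272), and Phlda2, at 1.59, did not pass (edgeR adjusted p = 0.0592). Leaving out control 2 or mutant 2 brought Phlda2 past the threshold (lowest edgeR adjusted p = 0.0258). Kcnq1ot1, at -0.67, did not pass (edgeR adjusted p = 0.0804) except without mutant 1 (edgeR adjusted p = 0.0473). Counts of Kcnq1ot1 over those of Kcnq1 were 34.2, 52.2, 19.8 and 30.3 in controls and 11.2, 1.19, 2.10, 4.33 and 7.61 in mutants, with no overlap. All 83437 bases of Kcnq1ot1 overlap Kcnq1 on the other strand, so their reads may be mixed. Kcnq1 and Slc22a18 passed in each of the 9 fits that left out 1 library, and also when the endocrine score was a covariate. That score holds no acinar marker, so the part of acinar RNA in these rises was not tested.

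Copg2, a coat protein gene whose end overlaps Mest over 913 bases on the other strand, rose as well. Its mean was 4.76 ± 1.01 CPM in controls (SD, n = 4) against 8.04 ± 1.45 CPM (SD, n = 5) in mutants, a log2 difference of 0.76 (edgeR adjusted p = 0.0332). Leaving out control 1, 3 or 4 or mutant 3, 4 or 5 lost the call, and the edgeR adjusted p reached 0.0968. Mest counts over Copg2 counts were 9.46, 5.05, 9.68 and 11.7 in controls and 33.2, 89.7, 81.5, 51.6 and 25.2 in mutants, so the neighbours did not differ by like amounts.

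Beyond the members, 61 imprinted genes were in the table and 43 were tested. Of these, 7 rose (16.3%) and 13 fell (30.2%), where 20.6% of all genes tested rose and 11.8% fell, 32.4% together. Their median log2 difference was -0.62, where that of all genes was 0.04. Under RLE scaling 5 rose and 16 fell, and the share of all calls that were higher went from 63.6% to 51.8%. Among 16 genes read from the paternal copy, 0 rose by edgeR (0 also at an unadjusted p under 0.05, and 0 by DESeq2) and 5 fell, namely Usp29, Snrpn, Rasgrf1, Peg13 and Impact. Among 8 read from the maternal copy, 4 rose (Copg2, Kcnq1, Slc22a18 and the growth receptor adaptor Grb10) and 2 fell (Zim1 and Mirg). Among 19 whose imprint is limited to some tissues or isoforms, 3 rose (Commd1, H13 and Pon2) and 6 fell (Inpp5f, Asb4, Ppp1r9a, Tfpi2, Tssc4 and Ddc). The classes came from a list of imprinted genes and were not read from these islets, and the difference between them was not tested. Members are not in these counts. Of the paternally read members, Mest lay higher in every mutant, Peg3, Nnat and Igf2 lower, and Dlk1 and Plagl1 overlapped. Of the maternally read ones, Meg3 and Rian lay lower, Cdkn1c overlapped and H19 had no counts.

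**Figure D4:**
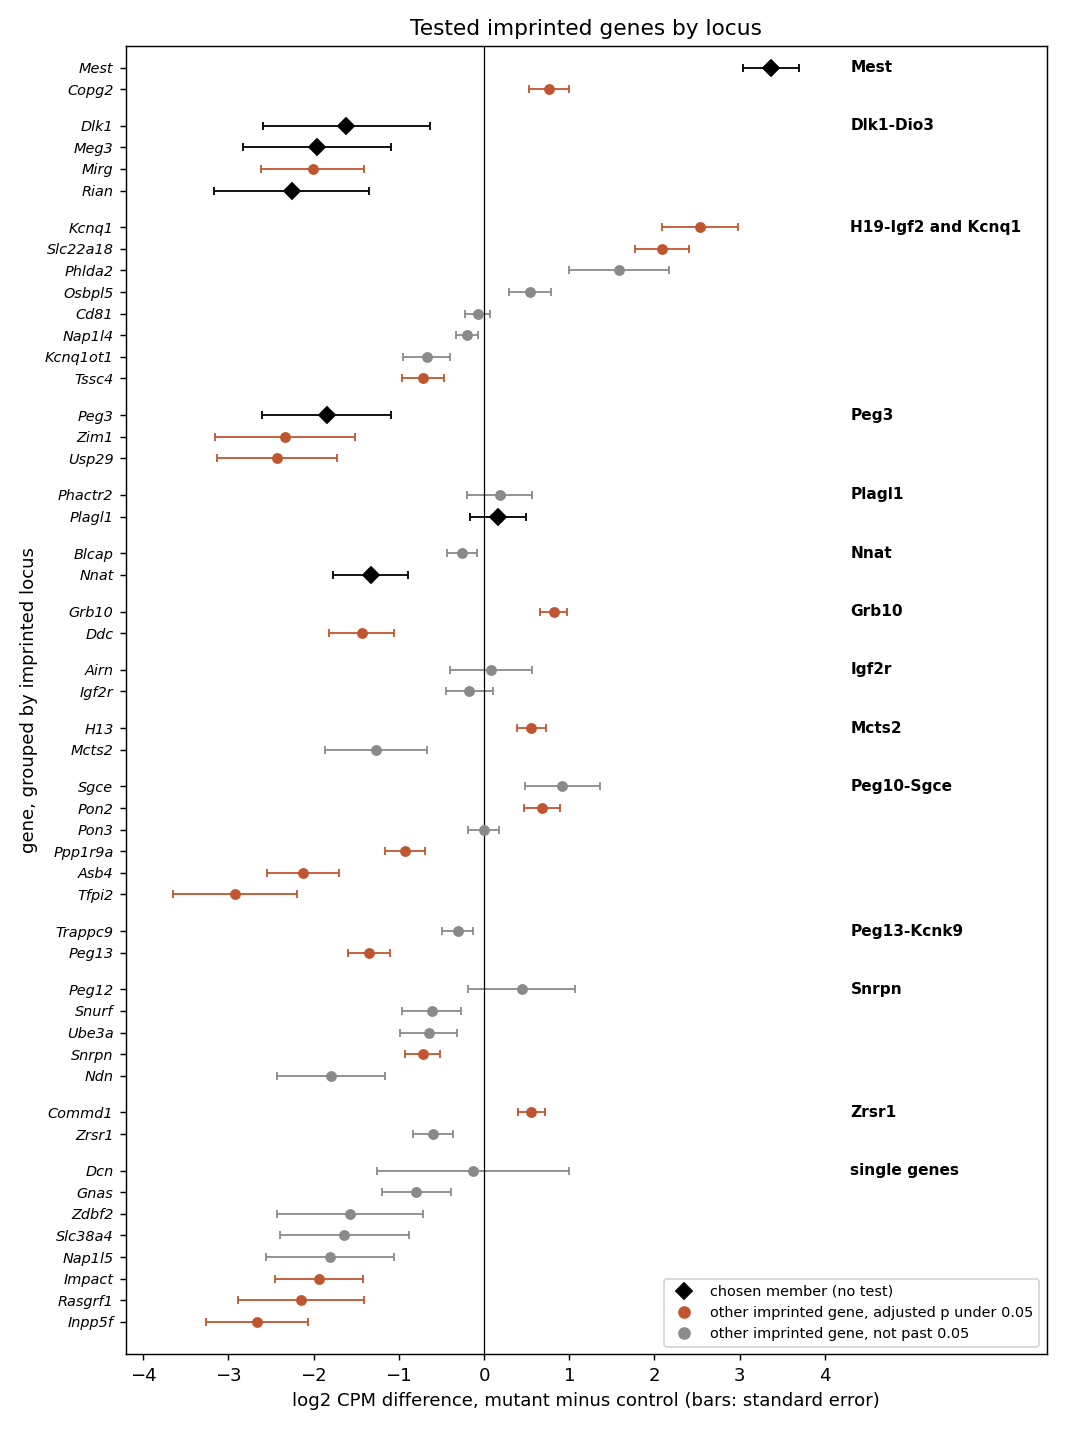
Log2 difference of mutant against control for the imprinted genes tested, grouped by locus, with bars of 1 standard error, members as black diamonds, other genes past an adjusted p of 0.05 in orange and the rest in grey. Mest, Kcnq1 and Slc22a18 lie highest, at 3.37, 2.53 and 2.09, and 30 of the 43 other imprinted genes lie below 0.

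Inpp5f, Peg13, Impact, Asb4, Ppp1r9a and Tfpi2 passed as lower in all 9 fits that left out 1 library, and Kcnq1, Slc22a18 and Grb10 passed as higher in all 9. Inpp5f, a phosphoinositide phosphatase gene with imprinted short forms, fell by 2.67 on the log2 scale (edgeR adjusted p = 0.0104), and the difference was -3.33 without mutant 1. Inpp5f was at 1665 CPM in control 2 against 703 to 781 in the other controls, and without control 2 its difference was -2.36. Tfpi2, a protease inhibitor gene, fell by 2.92 (edgeR adjusted p = 0.0151), and the difference was -3.71 without mutant 4. Asb4 fell by 2.12 (edgeR adjusted p = 0.0066) and the noncoding Peg13 by 1.35 (edgeR adjusted p = 0.00484). Grb10 rose by 0.82 (edgeR adjusted p = 0.00601). Impact fell by 1.94 (edgeR adjusted p = 0.0197), and control 2, at 333 CPM, stood far above the other controls at 113 to 119. The other 11 calls were each lost without at least 1 library, and 16 of the 20 were kept without mutants 2 and 3, where 10.8% of all genes tested rose and 9.78% fell. With the endocrine score as a covariate 3 of the 20 were kept, Kcnq1 at 1.23 (edgeR adjusted p = 0.0423), Slc22a18 at 1.75 (0.0382) and Pon2 at 1.08 (0.0316), and 0 imprinted genes fell by edgeR (4 at an unadjusted p under 0.05). In that fit 3.92% of all genes tested rose and 0.532% fell.

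Genes that write and guard imprints were read next. Of 13 tested, 1 rose (7.69%) and 3 fell (23.1%), against 20.6% and 11.8% of all genes tested. Uhrf1, which brings the maintenance methyltransferase to newly copied DNA, was at 0.560 ± 0.422 CPM in controls (SD, n = 4) against 5.14 ± 3.82 CPM (SD, n = 5) in mutants and rose by 3.15 on the log2 scale (edgeR adjusted p = 0.0168). It was highest in mutants 2 and 3, at 9.30 and 9.25 CPM, and without them its difference was 1.99 and did not pass (edgeR adjusted p = 0.0663). Tet2, which oxidises methylated cytosine, fell by 1.46 (edgeR adjusted p = 0.006), Tet1 by 2.05 (edgeR adjusted p = 0.0318) and the de novo methyltransferase gene Dnmt3a by 1.35 (edgeR adjusted p = 0.0217). Leaving out control 1, 2 or 4 or mutant 3 lost the Tet1 call (edgeR adjusted p up to 0.0806), and leaving out mutants 2 and 3 together lost the Dnmt3a call (edgeR adjusted p = 0.0647). Dnmt3a was at 145 CPM in control 2 against 46.0 to 62.3 in the other controls, and without control 2 its difference was -0.93. When the endocrine score was a covariate none of these 4 calls was kept, with Uhrf1 at 1.58 (edgeR adjusted p = 0.3), Tet2 at -1.13 (edgeR adjusted p = 0.114), Tet1 at -0.13 (edgeR adjusted p = 0.964) and Dnmt3a at -0.76 (edgeR adjusted p = 0.359). Zfp57, Trim28, Setdb1, Dnmt1 and Ctcf, central to imprint upkeep, did not pass, except Setdb1 without mutant 1 (0.55, edgeR adjusted p = 0.0388).

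Of the IGF axis (the ligand gene Igf1, receptors, IGF binding proteins and Igf2 mRNA binding proteins), 8 genes were tested, 0 rose by edgeR and 1 fell (12.5%, against 11.8% of all genes tested). Igf1r, the receptor that carries the growth signal of IGF1 and IGF2, stood at 201.5, 234, 168 and 187 CPM in controls and 98.8, 53.8, 66.4, 44.9 and 52.3 in mutants. All 5 mutants lay below every control, with a log2 difference of -1.64 ± 0.23 (SE, edgeR adjusted p = 0.00232). Igf1r passed in every fit that left out 1 library, and also when the endocrine score was a covariate (-1.43, edgeR adjusted p = 0.0388). Insr at 0.98 (edgeR adjusted p = 0.165) and Igf2bp2, which encodes an Igf2 mRNA binding protein, at 1.03 (edgeR adjusted p = 0.0909) did not pass. Igf2bp2 did pass without mutants 2 and 3 (1.35, edgeR adjusted p = 0.0359). Igf1 passed as higher without control 2 (2.24, edgeR adjusted p = 0.0267). As lower, Igfbp3 (-2.62, edgeR adjusted p = 0.0189) and Igfbp5 (-2.45, edgeR adjusted p = 0.0308) passed without mutant 1, and Igfbp7 (-2.05, edgeR adjusted p = 0.0481) without mutant 4. By limma-voom with quality weights Igf1 (2.0, adjusted p = 0.022), Igfbp3 (-2.14, adjusted p = 0.0423) and Igfbp5 (-2.48, adjusted p = 0.0255) passed, as did Igf1 with a replicate block (1.84, edgeR adjusted p = 0.0282).

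The Notch pathway, to which the Dlk1 protein is related, had 11 genes tested, of which 2 rose (18.2%) and 2 fell (18.2%), against 20.6% and 11.8% of all genes tested. The target genes Hes1 and Heyl rose by 1.65 (edgeR adjusted p = 0.00398) and 1.47 (edgeR adjusted p = 0.00802). Hes6 fell by 0.62 (edgeR adjusted p = 0.00939), as did the receptor gene Notch1, by 0.65 (edgeR adjusted p = 0.0452). The Notch1 call was lost without any 1 control or mutant 2, 3 or 4 (edgeR adjusted p up to 0.125), and without mutants 2 and 3 together (edgeR adjusted p = 0.14). When the endocrine score was a covariate none of the 4 was kept, with Hes1 at 1.28 (edgeR adjusted p = 0.0691), Heyl at 1.01 (edgeR adjusted p = 0.133), Hes6 at -0.65 (edgeR adjusted p = 0.0945) and Notch1 at -0.37 (edgeR adjusted p = 0.499).

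Of the cyclin-dependent kinase inhibitors beside Cdkn1c, 4 were tested. Of these, 1 rose (25%) and 2 fell (50%), against 20.6% and 11.8% of all genes tested. Cdkn1a, which encodes p21, rose by 0.97 (edgeR adjusted p = 0.00828). Cdkn1b, which encodes p27, fell by 1.63 (edgeR adjusted p = 0.0219) and Cdkn2d by 0.99 (edgeR adjusted p = 0.0203, reaching 0.0655 without control 1). Cdkn1b was at 48.4 CPM in control 2 against 10.8 to 12.3 in the other controls, and without control 2 its difference was -0.88 (edgeR adjusted p = 0.0132). Without mutants 2 and 3 neither fall passed, with Cdkn1b at -1.69 (edgeR adjusted p = 0.0517) and Cdkn2d at -0.87 (edgeR adjusted p = 0.0573). When the endocrine score was a covariate none of the 3 was kept, with Cdkn1a at 0.92 (edgeR adjusted p = 0.0887), Cdkn1b at -1.54 (edgeR adjusted p = 0.213) and Cdkn2d at -0.77 (edgeR adjusted p = 0.247). Cdkn2b, at -0.84, did not pass (edgeR adjusted p = 0.0527) but did without mutant 1 (edgeR adjusted p = 0.0281), without mutant 5 (edgeR adjusted p = 0.0487), under RLE scaling (edgeR adjusted p = 0.0355), under TMM scaling without hormone genes (edgeR adjusted p = 0.0426), by DESeq2 (adjusted p = 0.0128), by limma-voom with quality weights (adjusted p = 0.0158) and with a replicate block (edgeR adjusted p = 0.0408).

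The signal peptidase complex, with which the Nnat protein has been linked, had 5 genes tested. Of these, 0 rose by edgeR and 2 fell (40%), against 20.6% and 11.8% of all genes tested. Spcs2 fell by 1.30 (edgeR adjusted p = 0.0179) and Spcs3 by 0.89 (edgeR adjusted p = 0.0153). Spcs2 was at 2021 CPM in control 2 against 657 to 796 in the other controls, and without control 2 its difference was -0.86 (edgeR adjusted p = 0.0144). When the endocrine score was a covariate neither was kept, with Spcs2 at -1.04 (edgeR adjusted p = 0.23) and Spcs3 at -0.46 (edgeR adjusted p = 0.293). Sec11a at 0.09, Sec11c at -0.82 and Spcs1 at -0.33 did not pass, except Sec11c under RLE scaling (edgeR adjusted p = 0.0483) and by DESeq2 (adjusted p = 0.0232). Of the relatives of Plagl1, Plag1 stood at -2.0 (edgeR adjusted p = 0.0462), and leaving out control 1 or 2 or mutant 2, 3, 4 or 5 lost the call. Plag1 was at 13.02 CPM in control 2 and 1.76 to 2.05 CPM in the other controls, and without control 2 its difference was -0.79 (edgeR adjusted p = 0.155). Plagl2 at 0.10 did not pass.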

How the data were processed

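Polyadenylated RNA of 9 islet libraries (4 control, 5 mutant) was deposited by the authors as whole-number counts per gene symbol, not normalized. The submitters' processing notes name STAR and Bowtie2, RSEM, HOMER, DESeq2, R 4.1.0 and mm10 among others, without roles. The counter, its annotation and its use of strand are not given in the sources used here. Groups and numbers came from titles and genotype labels, and no library was a copy of another.

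Mutant was compared with control by edgeR 4.0.16's quasi-likelihood test (R 4.3.3) on the counts, after filterByExpr (12402 genes, 7 members) and TMM scaling, with Benjamini-Hochberg adjustment over all genes and a two-sided threshold of 0.05. Log2 CPM used a prior count of 2. Levels per kb used the union of GENCODE M21 exons over a gene's transcripts. Positions, promoters and microRNAs came from RefSeq on GRCm38.p6. Profiles were compared over the 9 libraries among genes whose mean log2 CPM was 1 or more, so they hold the mutant against control difference. The members and lists were chosen with earlier results of these data known. Text names all members, imprinted genes past the threshold or in a member's cluster, and partner genes by lowest p or by name, and some that the rule gives are left out. Alternatives were RLE scaling, TMM without 7 hormone genes, no or a stricter low-count filter, DESeq2 1.42.0, limma-voom (limma 3.58.1) with quality weights, the replicate number as a block, an endocrine covariate, each library left out, and mutants 2 and 3 left out. Counts of 12093 genes were also simulated, with 100 genes changed 2-fold and 100 changed 4-fold. Of these, 11% of 2-fold and 67% of 4-fold changes were recovered, and 3.7% of calls were false. Far more genes, 32.4%, were called in the real comparison, so these rates may not hold for it.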

Additional observations from a re-analysis of the deposited data

Results flagged for a closer look

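In 9 instances 1 library lay far from the others of its group by the gap between it and its neighbour. The test was run on 110 groups of values, and chance gives about 1 in 20. Values are log2 CPM. Control 2 was high for Inpp5f (10.70), Impact (8.38), Cdkn1b (5.61), Spcs2 (10.98) and Plag1 (3.73). Control 3 was low for Dlk1 (-0.45, from 4 counts) and for Tet1 (1.82). Mutant 4 was high for Cdkn1c (2.17, from 29 counts) and for H13 (8.97).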

How the results depend on the processing

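Of all genes tested, 2560 were called higher and 1462 lower. The share called higher was 63.6% of calls, and 51.8% under RLE scaling, which shifted the median log2 difference of all genes by -0.102, as no low-count filter did by -0.111. Counts that moved by over 1.5 times are given here, and the cause was not tested. With the endocrine covariate 486 genes were higher and 66 lower, and 3 and 0 of the other imprinted genes. Without mutants 2 and 3, 1355 genes were higher. DESeq2 called 2555 lower and limma-voom 2294. Without the low-count filter 4 other imprinted genes were higher. Leaving out 1 library gave 1579 to 2702 genes higher and 699 to 1865 lower, and 3 to 7 and 6 to 16 of the other imprinted genes, with the lowest imprinted counts without control 1. The labels do not pair the libraries. Between controls and mutants 1 to 4 of like number, the correlations of deviations were 0.0532, -0.0220, 0.1808 and -0.0453. None was highest with its own number, though such values cannot show that pairing is absent. With the replicate block 1658 genes were higher and 774 lower, 4 and 8 of them other imprinted genes.

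Signs turned with the endocrine covariate for Dlk1 (0.34), Meg3 (0.83), Rian (1.88), Peg3 (0.41), Plagl1 (-0.15), Insr (-0.33), Sec11a (-0.037), Cd81 (0.036) and Blcap (0.039). Plagl1 was also at -0.080 with the replicate block and -0.0060 without mutants 2 and 3. Sec11a was at -0.00069 with RLE scaling, -0.00056 with DESeq2 and -0.046 without mutants 2 and 3, and Plagl2 at -0.0020 with DESeq2 and -0.013 with the replicate block. Leaving out 1 library, Plagl1 ran from -0.029 to 0.28, Sec11a from -0.05 to 0.32, Plagl2 from -0.019 to 0.25 and Phactr2 from -0.065 to 0.63. Mest ran from 3.14 to 3.51, Meg3 from -2.33 to -1.71 and Peg3 from -2.12 to -1.60. Depth limits H19, Igf2, Cdkn1c, Dlk1 and Rian, whose counts are few or 0.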
